A study of Mus musculus with 2 samples.

Results

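The 8 genes described here carry ovarian hormone signals through the mammary epithelium: the hormone receptors Esr1 and Pgr, the transcription coregulator Cited1, the secreted signals Areg, Tnfsf11 and Wnt4, and the receptors Tnfrsf11a and Egfr. They were taken by symbol, and all 8 were found among the 27179 features of the count matrices. Single-cell RNA sequencing was done on adult mouse mammary cells at 18.5 days of pregnancy, sorted as lacking Ter119, CD31 and CD45, which mark red blood cells, endothelium and leukocytes. The Ehf_KO library came from mice of the strain labelled EhfKO, a label that names a deletion of Ehf, an ETS family transcription factor of epithelia. The WT library came from wild type mice of the same stage. Glands of 2 females were pooled for each library, no other allele or agent is given in the labels, and the labels do not say which part of Ehf was deleted. The glands of both genotypes were collected in a medium that held epidermal growth factor, insulin and hydrocortisone, so Egfr and the steroid-responsive genes were read after contact with added ligands in both libraries.

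Oestrogen and progesterone act on the mammary gland through a minority of luminal cells, the hormone-sensing cells, that hold their receptors. These cells signal onward to neighbours that lack the receptors. Amphiregulin (Areg) is a ligand of the epidermal growth factor receptor (Egfr) made under oestrogen. RANKL (Tnfsf11) is made under progesterone and prolactin and binds RANK (Tnfrsf11a) on other epithelial cells, where it drives proliferation and alveolar growth. Wnt4 is a secreted Wnt ligand made under progesterone that acts on basal cells.

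The Ehf_KO library held 7275 barcodes and 40066795 unique molecular identifiers (UMIs, each counting 1 captured transcript molecule), and the WT library held 11258 barcodes and 48720938 UMIs. After filtering, 6561 Ehf_KO and 9089 WT cells were left, with medians of 3900 and 2481 UMIs per cell. They fell into 18 clusters. Hormone-sensing cells were 1 cluster, named from 12 markers that held none of the 8 genes, of which 11 were measured. The 8 genes were also left out of clustering, so the cluster does not rest on them. It held 152 Ehf_KO cells, 2.32% of that library (95% exact binomial interval 1.97 to 2.71), and 125 WT cells, 1.38% (1.15 to 1.64). Luminal secretory cells, which are the joined alveolar-like and luminal progenitor-like clusters, numbered 822 in the Ehf_KO and 2561 in the WT library. Basal cells numbered 5518 in Ehf_KO and 6219 in WT. The sort left 69 Ehf_KO and 184 WT cells in clusters of other types, 1 of which mixed myeloid and endothelial leading genes. With a single library of each genotype, differences could be set against counting error alone, and none was tested across animals. All intervals are exact, at 95%, and cover counting error only, as do the limits given for a count of 0, which are 3 counts of the total. Both libraries shared 25 barcodes, of which 0 were hormone-sensing cells in Ehf_KO and 1 was in WT.

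Ehf transcripts were still read in the library labelled Ehf_KO. In luminal secretory cells Ehf had 1077 UMIs in 822 Ehf_KO cells and 3347 in 2561 WT cells, or 80.7 CPM (UMIs of the gene scaled to 1e6 UMIs of the class) and 115 CPM, and was seen in 54.9% of Ehf_KO and 57.6% of WT cells. The log2 ratio was -0.51 by plain CPM and -1.37 relative to the median gene, the scale explained with the luminal secretory results. After thinning to 2000 UMIs per cell the shares were 16.1% (13.6 to 18.8) in Ehf_KO and 20.02% (18.5 to 21.7) in WT. In hormone-sensing cells it had 29 UMIs in Ehf_KO and 17 in WT, a log2 ratio of -0.23 (-1.14 to 0.72), so a difference there was not detectable at this depth. Counts of transcript 3' ends do not check a deletion elsewhere in a gene, so these values do not check the label.

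The sequences before the starts of Areg and Tnfsf11, the 2 of the 8 genes that were called in hormone-sensing cells, are shown for reference, since Ehf belongs to the ETS family. Each is the 250 bases 5' of the annotated start, from RefSeq on GRCm38.p6, printed 5' to 3' on the strand of the gene. Areg lies at chr5:91139599-91148432 on the plus strand and its window at chr5:91139349-91139598. Tnfsf11 lies at chr14:78277446-78308043 on the minus strand and its window at chr14:78308044-78308293. Capitals mark matches to 4 motifs searched on both strands: the oestrogen response element (GGTCA and TGACC spaced by 3 bases), the progesterone response element (GNACA and TGTNC spaced by 3 bases), the cyclic AMP response element TGACGTCA and the ETS core GGAAGT.
Areg: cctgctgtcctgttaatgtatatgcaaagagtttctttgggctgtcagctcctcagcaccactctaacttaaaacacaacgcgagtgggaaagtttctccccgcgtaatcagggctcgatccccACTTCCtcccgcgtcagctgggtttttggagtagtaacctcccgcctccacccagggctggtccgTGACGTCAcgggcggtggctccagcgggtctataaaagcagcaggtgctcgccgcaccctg
Tnfsf11: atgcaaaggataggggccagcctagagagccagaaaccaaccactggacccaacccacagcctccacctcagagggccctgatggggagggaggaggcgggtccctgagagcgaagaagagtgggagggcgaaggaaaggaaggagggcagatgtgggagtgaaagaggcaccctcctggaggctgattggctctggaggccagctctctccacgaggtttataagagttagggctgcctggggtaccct
The Areg window held 1 ETS core, at position 125 and on the opposite strand, and 1 cyclic AMP response element, at position 190, counted from the first base printed. These 2 matches do not overlap. The Tnfsf11 window held 0 matches to the 4 motifs. Over 32851 windows of the same length, 19.7% held the ETS core, 1.55% the cyclic AMP response element, 0.387% the progesterone response element and 0.0639% the oestrogen response element. A match is a run of letters and not a measured binding site.

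Of the 6 genes with at least 20 UMIs in hormone-sensing cells, the paracrine ligands Areg and Tnfsf11 had the largest ratios. Areg and Tnfsf11 were 2.90-fold and 2.98-fold higher in the Ehf_KO library, Wnt4 was higher by less than the 1.5-fold used for a call, and the receptors Pgr and Esr1 and the coregulator Cited1 were level or slightly lower. A gene was called at a 1.5-fold difference with at least 20 UMIs over both libraries. Of the 8 genes, 6 reached 20 UMIs in these cells and 2 of the 6 were called, both higher. Over all 7430 genes with that many UMIs, 12.7% were called higher and 13.7% lower, 26.3% in either direction.

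Areg had 1200 UMIs in 152 Ehf_KO hormone-sensing cells, against 207 UMIs in 125 WT cells. Its level was 980 CPM (925 to 1037) in Ehf_KO and 338 CPM (294 to 388) in WT. The log2 ratio was 1.53 (1.32 to 1.75), the 94th highest of 7430. Tnfsf11 had 364 UMIs in Ehf_KO and 61 in WT, or 297 CPM (268 to 329) and 99.7 CPM (76.3 to 128). Its log2 ratio was 1.58 (1.18 to 1.99), the 88th highest. The intervals of both libraries stood apart for both ligands.

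Wnt4, at chr4:137277635-137299501, had 569 UMIs in Ehf_KO and 203 in WT hormone-sensing cells, or 465 CPM (427 to 505) and 332 CPM (288 to 381). The log2 ratio was 0.49 (0.25 to 0.72), whose interval lies above 0 and includes the 1.5-fold line. Pgr, the progesterone receptor at chr9:8898900-8968611, had 193 UMIs in Ehf_KO and 126 in WT, or 158 CPM (136 to 182) and 206 CPM (172 to 245), a log2 ratio of -0.39 (-0.72 to -0.05). Cited1, which binds the oestrogen receptor and marks these cells, lies at chrX:102247378-102252181. It had 1128 UMIs in Ehf_KO and 651 in WT, or 921 CPM (868 to 977) and 1064 CPM (984 to 1149), a log2 ratio of -0.21 (-0.35 to -0.07). Esr1, the oestrogen receptor at chr10:4611989-5005633, was sparse, with 21 UMIs in Ehf_KO and 11 in WT and a log2 ratio of -0.07 (-1.19 to 1.13). So the receptor transcripts were not higher where the ligand transcripts were, and for Esr1 a difference was not detectable at this depth.

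**Figure D1:**
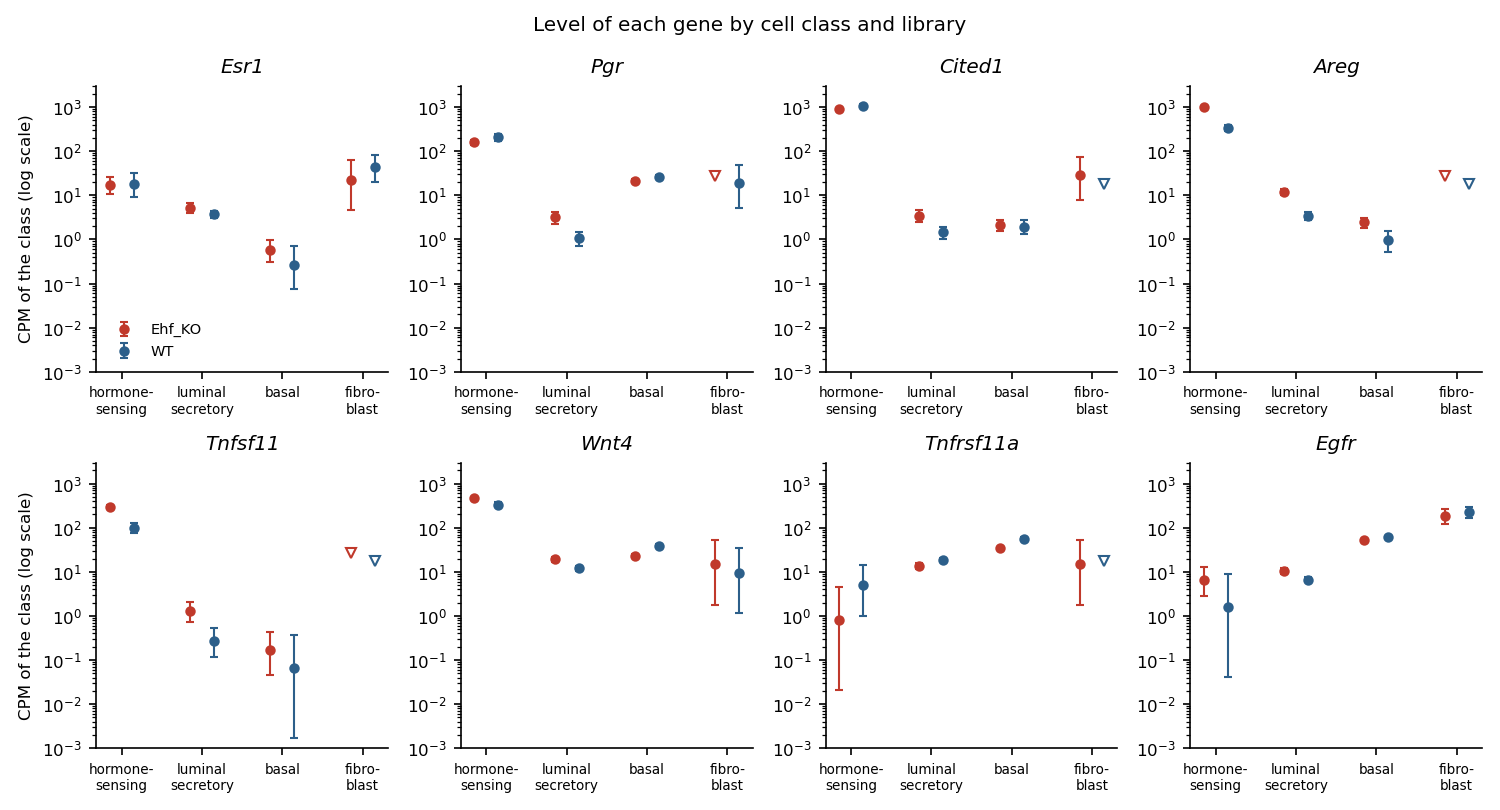
Level of each of the 8 genes in 4 cell classes, in CPM of the class on a log scale, with Ehf_KO in red and WT in blue. Points are sums over cells with exact 95% Poisson intervals, and open triangles are the upper limit where no UMI was seen. Areg, Tnfsf11, Cited1, Pgr and Wnt4 stood highest in hormone-sensing cells, where Areg reached 980 CPM in Ehf_KO and 338 CPM in WT. Egfr was highest in fibroblasts, as was the point for Esr1, whose interval there overlapped that of hormone-sensing cells.

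Depth differed between the libraries in these cells, with medians of 7784.5 UMIs per cell in Ehf_KO and 4334 in WT, so shares of cells were compared after each cell was thinned to 2000 UMIs. That left 150 Ehf_KO and 122 WT cells and left out 2 and 3. Areg was then seen in 109 Ehf_KO cells, 72.7% (64.8 to 79.6), and in 33 WT cells, 27.0% (19.4 to 35.8). Tnfsf11 was seen in 62 Ehf_KO cells, 41.3% (33.4 to 49.7), and in 13 WT cells, 10.7% (5.80 to 17.5). For Tnfsf11 the single draw of thinning fell somewhat low in WT: the share expected over all draws was 40.5% in Ehf_KO and 14.3% in WT, and for Areg 74.4% and 29.4%. Without thinning the shares were 95.4% in Ehf_KO and 40.0% in WT for Areg, and 73.7% and 22.4% for Tnfsf11.

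The other genes of the hormone axis did not separate in this way. Wnt4 was seen in 50.7% (42.4 to 58.9) of thinned Ehf_KO cells and 49.2% (40.0 to 58.4) of WT cells. Pgr was seen in 25.3% (18.6 to 33.1) of Ehf_KO and 32.8% (24.6 to 41.9) of WT cells, and Cited1 in 64.0% (55.8 to 71.7) of Ehf_KO and 74.6% (65.9 to 82.0) of WT cells. Esr1 was seen in 4 cells of each library. The intervals overlapped for all 4 genes, and the expected share of Wnt4 over all draws was 57.5% in Ehf_KO and 45.8% in WT. The mean of Wnt4 in the draw was 1.06 UMIs per Ehf_KO cell and 0.672 per WT cell. Without thinning Wnt4 was seen in 91.4% of Ehf_KO and 68.0% of WT cells. For comparison, thinned basal cells had Areg in 0.526% of Ehf_KO and 0.244% of WT cells. Tnfsf11 was in 0.0188% of Ehf_KO and 0 of 3275 WT cells (which allows up to 0.0916% by the 3-count limit), and Cited1 in 0.413% and 0.397%. Whether these basal counts come from free RNA was not tested. The median depth of basal cells before thinning was 3682.5 UMIs in Ehf_KO and 2041 in WT.

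**Figure D2:**
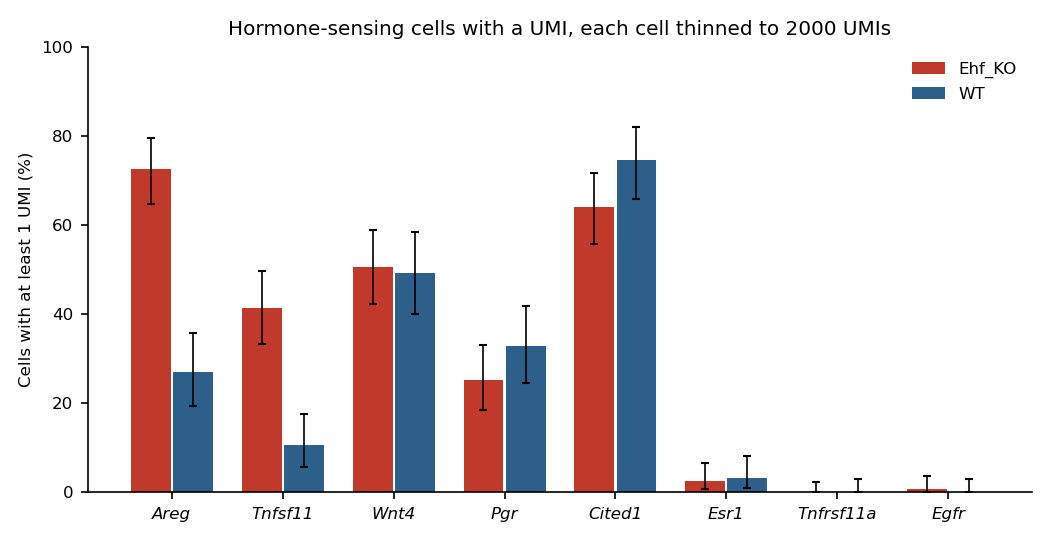
Percent of hormone-sensing cells with at least 1 UMI of each gene after thinning to 2000 UMIs per cell, in 150 Ehf_KO cells (red) and 122 WT cells (blue). Bars are shares and lines exact 95% binomial intervals, and the intervals of the libraries stood apart for Areg and Tnfsf11 alone among the 8 genes.

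More cells carried Areg in the Ehf_KO library, and positive cells were also richer in it. In thinned cells, 19 of 150 Ehf_KO cells (12.7%) held 5 or more Areg UMIs, against 1 of 122 WT cells (0.820%). The mean was 2.11 ± 2.16 Areg UMIs per Ehf_KO cell and 0.566 ± 1.10 per WT cell (SD over cells, which are not replicates). For Tnfsf11 the mean was 0.667 ± 0.988 UMIs per Ehf_KO cell and 0.131 ± 0.406 per WT cell, and no thinned WT cell held more than 2. Transcripts were also less concentrated in few cells. In cells as sequenced, the 16 richest of 152 Ehf_KO cells held 360 of 1200 Areg UMIs, and the 13 richest of 125 WT cells held 116 of 207 (56.0%). For Tnfsf11 the share in the same numbers of cells was 33.5% in Ehf_KO and 70.5% in WT, though concentration also depends on how many UMIs there are.

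**Figure D3:**
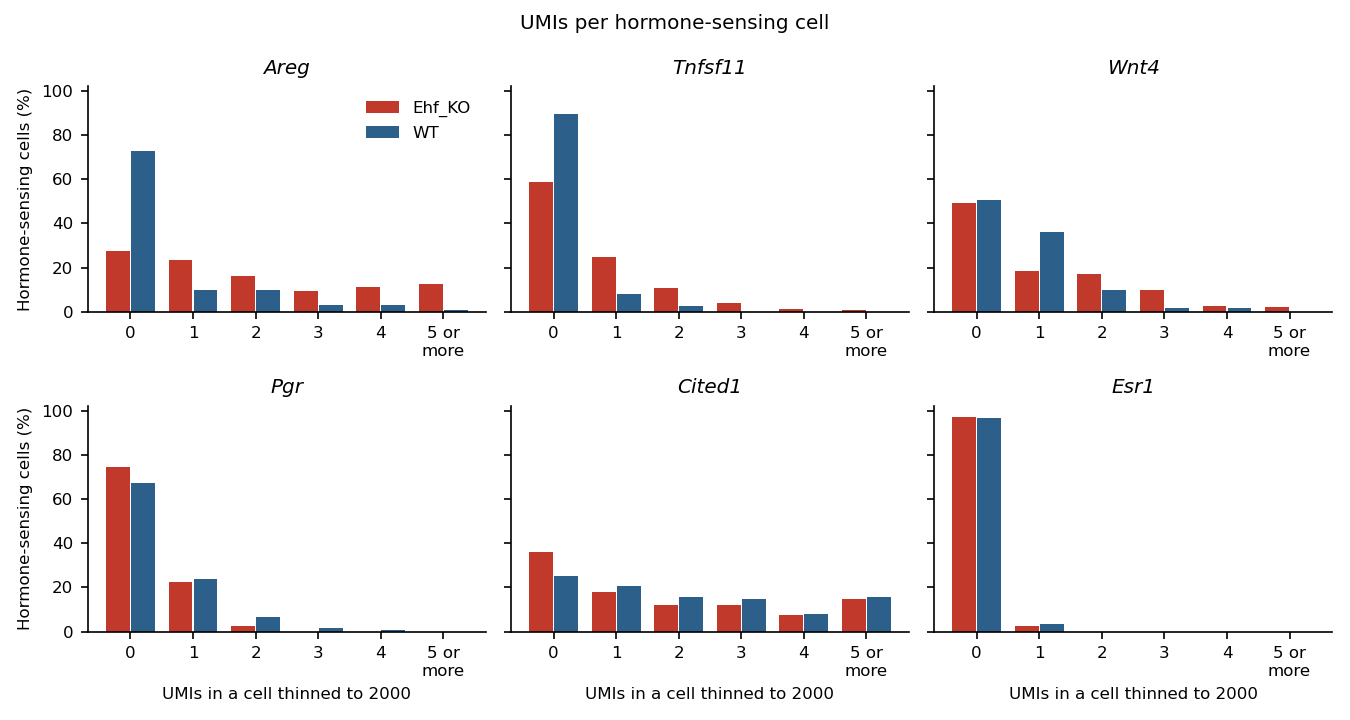
Share of hormone-sensing cells by the number of UMIs of a gene, each cell thinned to 2000 UMIs, for 6 genes in 150 Ehf_KO cells (red) and 122 WT cells (blue). For Areg 27.3% of Ehf_KO and 73.0% of WT cells were at 0. For Wnt4 49.3% of Ehf_KO and 50.8% of WT cells were at 0 in this draw, with means of 1.06 and 0.672 UMIs per cell.

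Co-detection was read over the 15 pairs of the 6 genes of the hormone axis in each library, in thinned cells. In 1 of the 30 pairs, Areg with Tnfsf11 in WT, the share of cells with the second gene stood apart between cells with and without the first. Among the 13 WT cells with Tnfsf11, 10 had Areg (76.9%, 46.2 to 94.96), against 23 of the 109 WT cells without Tnfsf11 (21.1%, 13.9 to 29.96). In Ehf_KO, 49 of 62 cells with Tnfsf11 had Areg (79.0%, 66.8 to 88.3), and 60 of 88 without it did (68.2%, 57.4 to 77.7). Without thinning these shares stood apart in Ehf_KO too, at 99.1% (95.1 to 99.98) with Tnfsf11 and 85.0% (70.2 to 94.3) without it. At 1000 UMIs they did not, at 57.1% and 59.0%. Cells with both ligands were 32.7% (25.2 to 40.8) of Ehf_KO and 8.20% (4.00 to 14.6) of WT hormone-sensing cells. In WT the 10 cells with both compare with 3.52 from the product of the separate shares, and in Ehf_KO the 49 compare with 45.1. The small number of WT cells with Tnfsf11 limits this reading.

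Tnfsf11 was not tied to detected Pgr in either library. Pgr was seen in 13 of 62 Ehf_KO cells with Tnfsf11 (21.0%, 11.7 to 33.2) and in 28.4% (19.3 to 39.0) of those without it. In WT it was seen in 4 of 13 cells with Tnfsf11 (30.8%, 9.09 to 61.4) and in 33.0% (24.3 to 42.7) of those without. Cells with Tnfsf11 and no Pgr UMI were 32.7% of Ehf_KO and 7.38% of WT cells. At 2000 UMIs a cell without a Pgr UMI may still express it, so these counts do not show cells that lack the receptor. Areg was seen in 33 of 38 Ehf_KO cells with Pgr (86.8%, 71.9 to 95.6) and 67.9% (58.4 to 76.4) of those without, and in 11 of 40 WT cells with Pgr (27.5%, 14.6 to 43.9) and 26.8% (17.6 to 37.8) of those without. Cells with none of the 3 ligands Areg, Tnfsf11 and Wnt4 were 12.0% (7.27 to 18.3) of Ehf_KO and 35.2% (26.8 to 44.4) of WT cells. Prlr, the prolactin receptor, was seen in 90.7% of Ehf_KO and 97.5% of WT hormone-sensing cells. It is among the naming markers of the cluster, so this share partly follows from how the cells were chosen.

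Several measures moved with these results, and their part in them was not tested. Milk protein transcripts, which alveolar cells make, were a median of 0.100% of the UMIs of an Ehf_KO hormone-sensing cell and 0.650% of a WT one. Summed over cells they were 2553 CPM in Ehf_KO and 29380 CPM in WT. Both sums lie above the upper quartile over cells (0.141% and 0.863%), so a minority of cells carried much of the milk protein UMIs. All 6 measured genes of the cell cycle list were lower in Ehf_KO, though only 2 of 150 Ehf_KO and 5 of 122 WT thinned cells held 3 or more cell cycle UMIs. Of 9 measured basal markers, 6 were lower and 1 higher. No Ehf_KO cell was called a doublet at that library's own threshold; without the 7 Ehf_KO hormone-sensing cells whose score passed the WT threshold, the log2 ratio was 1.59 for Areg and 1.60 for Tnfsf11. Genes induced by tissue dissociation, a list chosen after values were seen, made up a median of 0.509% of UMIs in Ehf_KO and 0.564% in WT hormone-sensing cells, with 0 of 13 higher and 1 lower. The hormone-sensing markers had a median log2 ratio of 0.01, with 3 of 11 higher and 3 lower.

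Other signals of hormone-sensing cells did not move together. Of 7 measured genes outside the 8, 2 were higher and 1 lower, with a median log2 ratio of -0.16. Calca, Pnmt and Wnt5a are also among the markers that named the cluster, so this list and the marker list overlap. Calca, which encodes calcitonin and the peptide CGRP, had 5144 UMIs in Ehf_KO and 802 in WT, a log2 ratio of 1.68. Pnmt, the enzyme that makes adrenaline from noradrenaline, had 304 and 17 UMIs, a log2 ratio of 3.16. Wnt5a, a Wnt ligand that opposes branching, had 19 UMIs in Ehf_KO and 42 in WT, a log2 ratio of -2.15. Among the partners of steroid receptors, 4 of 16 were higher and 2 lower, with a median of 0.26. Over all genes in these cells 12.7% were called higher and 13.7% lower, and nothing particular to either list is read from its count. The chaperones Fkbp4 (136 UMIs in Ehf_KO and 39 in WT, log2 ratio 0.80) and Fkbp5 (99 and 29, 0.77) were higher, and Cited2, a coregulator related to Cited1, was lower (12 and 19, -1.66).

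**Figure D4:**
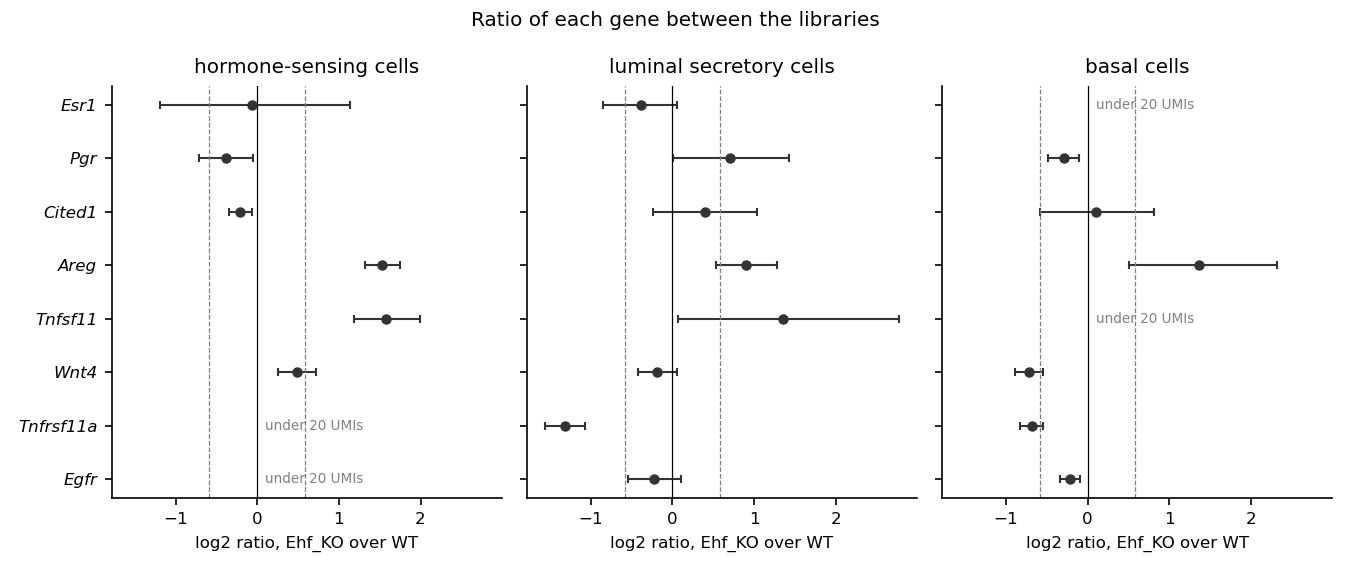
Log2 ratio of Ehf_KO over WT for the 8 genes in 3 cell classes, scaled to the median gene of the class, with exact 95% conditional intervals for counting error. Dashed lines mark 1.5-fold, and Areg and Tnfsf11 in hormone-sensing cells stood at 1.53 and 1.58 while Tnfrsf11a stood at -1.31 in luminal secretory cells, where it was -0.45 by plain CPM, and at -0.68 in basal cells.

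Most UMIs of Areg and Tnfsf11 lay in hormone-sensing cells, and most UMIs of Egfr, Tnfrsf11a and Pgr in basal cells. Basal cells held 68.7% of the Pgr UMIs in Ehf_KO and 70.3% in WT, and hormone-sensing cells 25.5% and 22.7%. The Pgr level in CPM was nevertheless higher in hormone-sensing than in basal cells. Hormone-sensing cells held 94.5% of all Tnfsf11 UMIs of kept Ehf_KO cells and 87.1% of those of WT cells, and 84.7% and 63.1% of the Areg UMIs. Luminal secretory cells held 11.1% of the Areg UMIs in Ehf_KO and 30.8% in WT. Wnt4 was spread more widely: hormone-sensing cells held 40.8% of its UMIs in Ehf_KO and 17.9% in WT, and basal cells 40.7% and 50.4%. Tnfrsf11a, at chr1:105780673-105849444, had 1 UMI in Ehf_KO and 3 in WT hormone-sensing cells, and 0 of 150 and 0 of 122 thinned cells held it, which allows shares of cells with a UMI of up to 2.00% and 2.46% by the 3-count limit at that depth. Basal cells held 81.7% of the Tnfrsf11a UMIs in Ehf_KO and 59.4% in WT, and luminal secretory cells 17.5% and 38.8%. Egfr, at chr11:16752203-16913907, had 8 UMIs in Ehf_KO and 1 in WT hormone-sensing cells, and basal cells held 87.9% of its UMIs in Ehf_KO and 78.7% in WT.

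In luminal secretory cells Tnfrsf11a was lower in the Ehf_KO library, and by how much depended on the scaling and the clusters. It had 181 UMIs in Ehf_KO and 542 in WT, or 13.6 CPM (11.7 to 15.7) and 18.6 CPM (17.0 to 20.2). By plain CPM the median gene of these cells stood 0.86 higher in Ehf_KO on the log2 scale, and ratios are given relative to that median gene. Milk protein genes summed to 102763 CPM in Ehf_KO and 388532 CPM in WT. On that scale the log2 ratio of Tnfrsf11a was -1.31 (-1.56 to -1.07), and by plain CPM it was -0.45. Thinned shares were 2.52% (1.54 to 3.86) of 795 Ehf_KO and 3.74% (3.03 to 4.57) of 2457 WT cells. Different clusters held most of the class: the alveolar-like cluster 3 held 9.61% of the Ehf_KO and 75.4% of the WT cells, and clusters 6 and 7, which the marker rule named progenitor-like, held 58.0% and 32.4% of Ehf_KO and 9.61% and 15.0% of WT. Cluster 7 was led by cell cycle genes such as Birc5 and Ube2c. Against cells of the other classes its leading genes were mostly milk genes, such as Csn1s2a, Csn3 and Csn2. The name progenitor-like therefore covers cluster 7 only in part. Within these clusters the log2 ratio of Tnfrsf11a was 0.08 (-0.62 to 0.70) in cluster 3, where Ehf_KO had 22 UMIs, -0.77 (-1.40 to -0.11) in cluster 6 and -1.12 (-1.52 to -0.72) in cluster 7.

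All 8 genes reached 20 UMIs in luminal secretory cells. Pgr, Areg and Tnfsf11 were called higher there and Tnfrsf11a lower, 4 of 8, where 17.4% of 12913 genes were called higher and 18.8% lower, 36.3% in either direction. By plain CPM 6 were called, all higher. The log2 ratio was 1.57 for Pgr, 1.77 for Areg, 2.22 for Tnfsf11, 1.26 for Cited1, 0.68 for Wnt4 and 0.64 for Egfr, and Tnfrsf11a was not called. On that scale the median gene itself stood 0.86 higher, past the 1.5-fold line. No share over all genes is given on it, so nothing particular to the 8 genes is read from this count. Areg, Tnfsf11 and Pgr were sparse in these cells. Areg had 157 UMIs in Ehf_KO and 101 in WT and was seen in 1.64% and 0.733% of thinned cells. Tnfsf11 had 17 and 8 UMIs, in 8 of 822 Ehf_KO and 2 of 2561 WT cells. Within clusters the log2 ratio of Areg was 0.10 (-0.56 to 0.82) in cluster 6 and 1.48 (0.65 to 2.39) in cluster 7. Cluster 3 had 0 Areg UMIs in Ehf_KO and 62 in WT. For Tnfsf11 cluster 6 gave -0.88 (-2.21 to 0.56), with 15 UMIs in Ehf_KO and 8 in WT. How far the class values follow from the different make-up of the class was not tested. Pgr had 42 and 31 UMIs and a log2 ratio of 0.71 (0.00 to 1.43). The share of thinned basal cells with Areg, given above, was lower still. With free RNA subtracted at 5% of UMIs, the log2 ratio was 0.39 for Pgr, which was then not called, 0.71 for Areg and 0.96 for Tnfsf11. The free RNA profile came from 500 barcodes of each library. No deposited barcode had fewer than 500 UMIs, so the barcodes used may be small or damaged cells and not empty droplets. The profile held Pgr, Areg and Tnfsf11 at 11.8, 26.5 and 5.89 CPM in Ehf_KO and at 0 CPM in WT. The subtraction thus took UMIs of these genes from Ehf_KO alone. Relative to the median gene, Egfr (138 and 194 UMIs, log2 ratio -0.22), Wnt4 (254 and 348, -0.18), Esr1 (69 and 109, -0.39) and Cited1 (46 and 42, 0.40) were not called; the sign for Egfr, Wnt4 and Esr1 (0.47 by plain CPM) turned with the scaling. Most Esr1 UMIs of each library lay in these cells, 64.5% in Ehf_KO and 82.0% in WT, although the level was higher in hormone-sensing cells. Fibroblasts had 3 Esr1 UMIs in Ehf_KO and 9 in WT, or 22.0 CPM (4.54 to 64.3) and 43.2 CPM (19.8 to 82.1). These intervals overlapped those of hormone-sensing cells, at 17.2 CPM (10.6 to 26.2) in Ehf_KO and 18.0 CPM (8.97 to 32.2) in WT.

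In basal cells the RANK receptor and Wnt4 were lower in Ehf_KO over the class as a whole. Tnfrsf11a had 844 UMIs in Ehf_KO and 830 in WT, or 34.8 CPM (32.5 to 37.2) and 56.1 CPM (52.3 to 60.0), a log2 ratio of -0.68 (-0.82 to -0.54). It was seen in 6.54% (5.89 to 7.23) of 5325 thinned Ehf_KO cells and 10.99% (9.94 to 12.1) of 3275 thinned WT cells, with 193 and 2944 shallower cells left out. Wnt4 had 568 and 572 UMIs, or 23.4 CPM (21.5 to 25.4) and 38.7 CPM (35.6 to 42.0), a log2 ratio of -0.72 (-0.89 to -0.55). Of the 8 genes, 6 reached 20 UMIs and 3 were called, Areg higher and these 2 lower. Over 14080 genes, 7.67% were called higher and 8.41% lower, 16.1% in either direction. The called Areg rested on 59 UMIs in Ehf_KO and 14 in WT, at shares of cells under 1%. With free RNA subtracted at 5% its log2 ratio was 0.24 and it was not called. That step took Areg UMIs from Ehf_KO alone, since the free RNA profile of WT held 0 CPM of Areg.

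Within clusters the basal differences varied in size and sign. Cluster 1 held 43.4% of the Ehf_KO and 3.31% of the WT basal cells, and cluster 0 held 2.12% of the Ehf_KO and 42.8% of the WT ones. Cluster 2, which held 17.5% of Ehf_KO and 17.6% of WT basal cells, gave a log2 ratio of -0.25 (-0.50 to 0.01) for Tnfrsf11a, with 255 UMIs in Ehf_KO and 257 in WT. For Wnt4 it gave -0.17 (-0.50 to 0.16). Over 10 basal clusters with at least 50 cells of each library, Tnfrsf11a ranged from -1.11 in cluster 9 to 0.33 in cluster 4. Cluster 13, led by ribosomal RNA genes, had the highest Tnfrsf11a level of any basal cluster, 226 CPM in Ehf_KO and 215 CPM in WT. The values for the whole class therefore cannot be told apart from the different make-up of the basal cells.

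**Figure D5:**
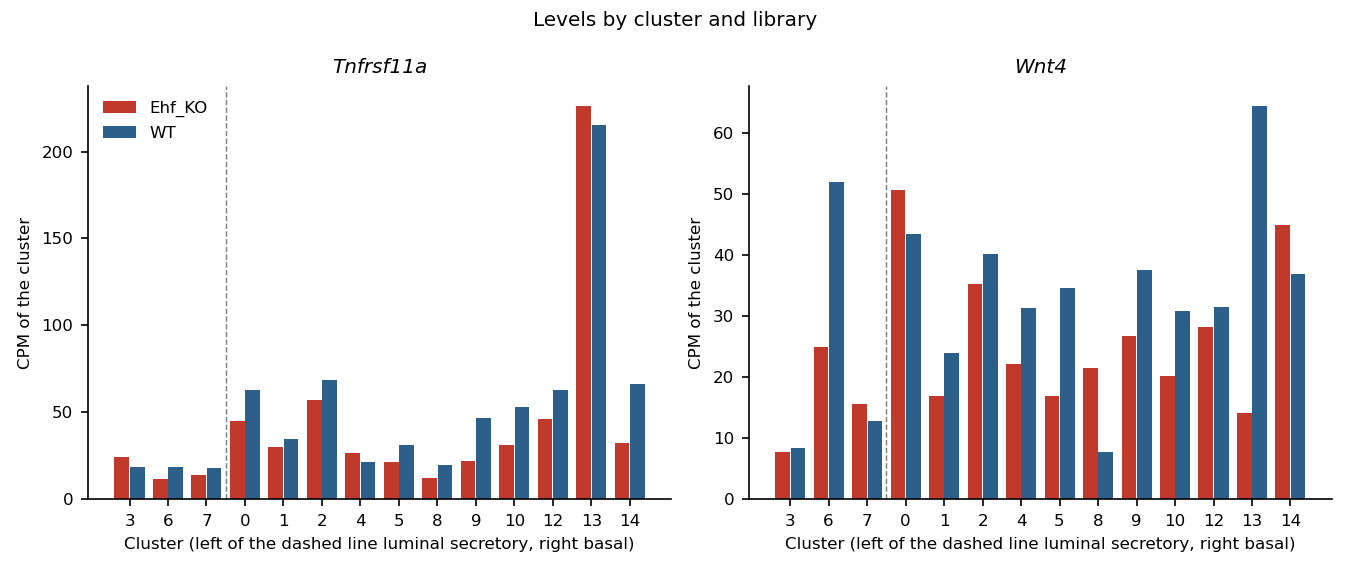
Tnfrsf11a and Wnt4 in CPM of each luminal secretory and basal cluster, with Ehf_KO in red left of WT in blue. Bars are levels of summed UMIs without intervals, and Tnfrsf11a was highest in cluster 13, at 226 CPM in Ehf_KO and 215 CPM in WT.

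Egfr and Pgr differed less in basal cells. Egfr had 1290 UMIs in Ehf_KO and 917 in WT, or 53.1 CPM (50.3 to 56.1) and 62.0 CPM (58.0 to 66.1), a log2 ratio of -0.21 (-0.34 to -0.09). Its level was highest in the few fibroblasts, 183 CPM (119 to 271) in 23 Ehf_KO cells and 221 CPM (162 to 295) in 53 WT cells, whose intervals overlapped. Pgr had 521 and 391 basal UMIs, a log2 ratio of -0.29 (-0.48 to -0.10), and was seen in 4.09% (3.58 to 4.66) of thinned Ehf_KO and 4.89% (4.17 to 5.68) of WT basal cells. That share lies above the 0.629% (0.205 to 1.46) and 0.0814% (0.00986 to 0.294) of luminal secretory cells. There were 10.2 Pgr UMIs per Cited1 UMI in Ehf_KO and 13.5 in WT basal cells, against 0.171 and 0.194 in hormone-sensing cells.

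Genes that act with these ligands and receptors were read as lists, to be set against the genes called over all genes: 7.67% higher and 8.41% lower in basal, 17.4% and 18.8% in luminal secretory, and 12.7% and 13.7% in hormone-sensing cells. With 5 to 19 measured genes in a list and class, nothing particular to a list is read from its count. Of the EGF family list (ligands, receptors and their regulators, without the 8 genes), 3 of 9 measured in basal cells were higher and 0 lower, with a median log2 ratio of 0.46, and 1 of 5 was higher in hormone-sensing cells. Hbegf, a membrane-anchored Egfr ligand, had 974 UMIs in Ehf_KO and 368 in WT basal cells (log2 ratio 0.70), and 32 and 6 in hormone-sensing cells (1.41). Epgn, another Egfr ligand, had 119 and 20 UMIs in basal cells, a log2 ratio of 1.87. In luminal secretory cells 4 of 12 were higher and 2 lower. Btc (85 and 39 UMIs, log2 ratio 1.39) was higher and Egf (61 and 208, -1.50) was lower.

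Of the 17 genes of the RANK pathway, 5 were higher and 0 lower in basal cells, with a median log2 ratio of 0.14. Luminal secretory cells had 4 of 17 higher and 0 lower, with a median of 0.00, and hormone-sensing cells had 4 of 13 higher and 3 lower, with a median of 0.17. Ccnd1, the cyclin D1 gene that RANK signalling induces, had 9201 UMIs in Ehf_KO and 2759 in WT luminal secretory cells, a log2 ratio of 2.01. It had 4434 and 1409 UMIs in basal cells (0.95) and 83 and 18 in hormone-sensing cells (1.20). Tnfrsf11b, which encodes the soluble decoy receptor of RANKL, had 367 UMIs in Ehf_KO and 126 in WT basal cells, a log2 ratio of 0.84. Rela, a subunit of NF-kappaB, was higher in all 3 classes, at 1.57 in hormone-sensing, 0.77 in luminal secretory and 0.78 in basal cells. Ccnd1 also answers to other signals, and which of them its level follows was not tested. All 8 measured cell cycle genes were higher in luminal secretory cells of the Ehf_KO library. Cluster 7, led by cell cycle genes, held 32.4% of these cells in Ehf_KO and 15.0% in WT.

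Of the Wnt receipt genes, 2 of 19 were higher and 1 lower in basal cells, with a median log2 ratio of -0.00, and 0 of 7 were higher and 2 lower in hormone-sensing cells. Rspo1, a secreted enhancer of Wnt signalling, had 666 UMIs in Ehf_KO and 186 in WT basal cells (log2 ratio 1.13) and 1188 and 362 in luminal secretory cells (1.98). Axin2, a target of Wnt signalling, had 185 and 72 UMIs in basal cells, a log2 ratio of 0.66. Of the 16 genes measured in luminal secretory cells, 5 were higher and 2 lower, and Lgr4, a receptor for R-spondins, had 432 and 1500 UMIs (-1.53). Among steroid receptor partners, luminal secretory cells had 3 of 18 higher and 6 lower, and the glucocorticoid receptor gene Nr3c1 was among the lower, with 604 and 1675 UMIs (-1.20).

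Over 33 profiles of a cluster in a library, the genes most like Tnfsf11 among 11773 were Tox3, Unc5d and Tspan1, each at a Pearson r of 0.99. The genes most like Areg were Calca (0.95), Tspan1 (0.94) and Tnfsf11 (0.94). Cited1 was most like Esrrb, Tesc and Unc5d, each at 0.97. For the receptors the nearest genes were Gpx3 for Esr1 (0.90), Rev3l for Pgr (0.89), Ackr3 for Egfr (0.93) and Actn4 for Tnfrsf11a (0.86), and for Wnt4 it was Stk38l (0.91). Most UMIs of Tnfsf11, Areg and Cited1 lay in the hormone-sensing cluster, so their r values rest mainly on its profile in each library. The profiles of one library also share its depth and free RNA, so all these values only describe the pattern.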

How the data were processed

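The deposited matrices are raw UMI counts of each gene in each barcode, which the authors had not normalized. They come from 10x Chromium 3' V3 libraries of 2 pooled females each, per the labels' protocols. The submitters' processing notes name GRCm38 (mm10) and Seurat 4.0.4; for the aligner, counter and barcode rule, nothing is stated (not given in the sources used here). Features without a symbol (1314) held 1.74% of Ehf_KO and 1.36% of WT UMIs.

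Cells had at least 500 genes and 1000 UMIs and at most 20% mitochondrial UMIs. Scrublet in scanpy 1.11.5 (expected rate 6%) called 122 WT and 0 Ehf_KO doublets, at thresholds of 0.379 and 0.621, so its threshold did not work for Ehf_KO. Leiden clustering (leidenalg 0.10.2, resolution 1, 2000 variable genes, 30 components, 20 neighbours) left out the 8 genes, milk, lipid, mitochondrial and ribosomal genes. Clusters were named from marker lists and the names are rebuilt here, so they may differ from the study's.

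UMIs were summed per library and class. Ratios are Ehf_KO over WT, scaled to the median gene with at least 50 UMIs. CPM are plain. Intervals are exact Poisson, conditional binomial or Clopper-Pearson. A single library of each genotype allowed no test. The counting step was tested on simulated data. Named genes were the 8 members and, per list and class, up to 4 called genes by size of ratio. A result that this rule took is not reported here. The members and lists were chosen with earlier results of these data known. Alternatives covered scaling, weighting, thinning, free RNA, cell filters, doublets, clustering and the fold.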

Additional observations from a re-analysis of the deposited data

Results flagged for a closer look

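Pgr and Wnt4 differed between the libraries in opposite directions in different cell classes, with intervals that did not include 0. The log2 ratio of Ehf_KO over WT for Pgr was 0.71 in luminal secretory cells, -0.39 in hormone-sensing cells and -0.29 in basal cells. For Wnt4 it was 0.49 in hormone-sensing cells and -0.72 in basal cells. The difference between classes was not tested, since there was 1 library per genotype. The lower bound for Pgr in luminal secretory cells was close to 0, and it was 0.39 with free RNA subtracted at 5%. Within clusters of that class it was 1.12 (-2.04 to 3.19) in cluster 3, with 2 UMIs in Ehf_KO and 17 in WT, 2.38 (0.31 to 5.54) in cluster 7, with 17 in Ehf_KO and 2 in WT, both under the 20 needed for a call, and -0.85 (-1.92 to 0.29) in cluster 6.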

How the results depend on the processing

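No paired analysis was possible because the labels give no replicate numbers and there was 1 library per genotype, which also left no replicate to leave out. Over 12 alternatives the log2 ratio in hormone-sensing cells stayed between 1.42 and 1.95 for Areg and between 1.54 and 2.33 for Tnfsf11. Among the main values, those that moved beyond counting error were as follows; the cause was not tested unless named. Summing cells thinned to 2000 UMIs gave 1.88 for Areg and 2.33 for Tnfsf11, with 4 genes called in hormone-sensing cells. The added calls were Wnt4 higher (0.64) and Pgr lower (-0.71). Wnt4 also passed the 1.5-fold line with a looser cell filter (0.71). Areg was 1.95 with a looser cell filter and 1.85 with the 8 genes in clustering, where Wnt4 was 0.75. The WT share of hormone-sensing cells was 1.79% under a stricter cell filter. Tnfrsf11a in luminal secretory cells was -0.45 by plain scaling and -1.01 scaled outside milk protein genes. At 2-fold, 2 genes were called in luminal secretory and 1 in basal cells. For these alternative counts of called genes no share over all genes is given. Shares fall with depth by construction: at 1000 UMIs the hormone-sensing share was 58.6% in Ehf_KO for Areg, and 23.0% in Ehf_KO and 5.60% in WT for Tnfsf11, and without thinning 95.4% and 40.0% for Areg and 73.7% and 22.4% for Tnfsf11. Of the values of single genes, 87 moved under planned and 22 under added alternatives. With free RNA subtracted at 5%, Areg in basal cells (0.24) and Pgr in luminal secretory cells (0.39) were no longer called. The free RNA profile held both genes in Ehf_KO alone. Tnfsf11 in luminal secretory cells was 4.33 with a looser and 4.19 with a stricter cell filter. Areg among Ehf_KO cells with Tnfsf11 was 57.1% at 1000 UMIs and 99.1% without thinning, against 59.0% and 85.0% among those without Tnfsf11.

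Ratios within clusters were added after seeing the data. In basal clusters 0, 1, 2, 4, 5, 9, 10, 12 and 13 the Tnfrsf11a ratio was -0.46, -0.22, -0.25, 0.33, -0.48, -1.11, -0.83, -0.50 and 0.060. Cluster 8 gave -0.69, close to the class value of -0.68. For Wnt4 it was 0.25, -0.51, -0.17, -0.50, -0.97, 1.43 and -0.50 in basal clusters 0, 1, 2, 4, 5, 8 and 9. Cluster 10 gave -0.67, close to the class value of -0.72. In luminal secretory cells Tnfrsf11a was 0.076 in cluster 3 and -0.77 in cluster 6. Cluster 6 gave -0.85 (-1.92 to 0.29) for Pgr and -0.88 (-2.21 to 0.56) for Tnfsf11. Depth limits Esr1, and Tnfrsf11a and Egfr in hormone-sensing cells, which held too few UMIs for a ratio.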
